A study of Mus musculus with 2 samples.

Results

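The tripartite motif (Trim) gene family was followed in leukocytes sorted from B16-F10 melanomas of mice with and without the DNA exonuclease gene Trex1. Members were all genes whose symbol begins with Trim and a number (1 gene left out) and that had at least 10 unique molecular identifiers (UMIs, 1 per captured RNA molecule) over the 8 samples. Of 67 such genes among 32432 in the count matrices, 48 met this rule and 19 did not. The knockout mice were Trex1 fl/fl with 1 R26CreERT2 allele (ki/wt), called iKO below. The control mice were Trex1 wt/fl with the same Cre allele, so they also received tamoxifen and could lose 1 of their 2 Trex1 alleles. All were male, 8 to 12 weeks old, and bore tumours grown from 1000 cells injected in both legs. From day 5 the mice received 1 mg of tamoxifen a day for 3 days, and living CD45+ cells were sorted on day 14. R26CreERT2 acts in every cell type that takes up tamoxifen, so the deletion was not limited to leukocytes. There were 4 hashtagged samples per genotype, and the labels do not say that each was 1 mouse, so p-values measure the spread between these samples. Each genotype was captured as 1 pool, so effects of pool and of genotype cannot be told apart.

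Tripartite motif proteins carry a RING domain, which in most members transfers ubiquitin, then B-box zinc fingers and a coiled coil, and they differ in their C-terminal domain. Members with a PRY-SPRY domain, such as Trim5 and Trim21, bind viral capsids or antibody-coated particles, and many of their genes are induced by type I interferon. Trim24, Trim28 and Trim33 form the TIF1 group of chromatin co-regulators, and Trim28 recruits histone methylation to silence transposable elements. Trex1 degrades cytosolic DNA, and cells without it produce type I interferon through cGAS and STING.

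The 10 members Trim6, Trim34a, Trim5, Trim12a, Trim34b, Trim12c, Trim30b, Trim30c, Trim30a and Trim30d lie in this order along chromosome 7 (RefSeq, assembly GRCm38.p6, used for sequence and gene order only). The interferon-stimulated response element is a short DNA motif found before many interferon-induced genes, and its core was searched as GAAANNGAAA, or TTTCNNTTTC on the other strand, in the 250 bases before each start. A promoter was found by symbol for 35 of the 48 members. The core was present in 5 of these 35 (14.3%), against 936 of 27025 genes (3.46%). All 5 belonged to the 12 matched members listed as interferon-inducible, and 0 of the 23 other matched members held it. The 5 windows are shown because they hold every match found among the members, and 4 of them belong to the chromosome 7 group. Each is given 5′ to 3′ on the gene's own strand, with the core in capitals.
Trim30a: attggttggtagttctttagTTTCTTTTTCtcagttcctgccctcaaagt
Trim30d: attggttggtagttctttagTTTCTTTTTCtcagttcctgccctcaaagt
Trim5: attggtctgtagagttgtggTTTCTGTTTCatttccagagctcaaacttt
Trim12c: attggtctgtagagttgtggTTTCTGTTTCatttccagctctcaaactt
Trim26: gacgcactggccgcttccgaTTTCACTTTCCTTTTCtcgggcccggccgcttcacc

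The Trim30a window lies at chr7:104465200-104465249 and the Trim30d window at chr7:104507861-104507910, both on the minus strand, and their 50 bases are identical. The Trim5 window (chr7:104288126-104288175, minus strand) and the Trim12c window (chr7:104353350-104353398, minus strand) share 47 of 49 bases. In these 4 genes the core began 36, 41, 49 and 29 bases before the start, respectively. Trim30a has another start in the same table, without a match before it. The Trim26 window (chr17:36836966-36837021, plus strand) holds 2 overlapping matches, the first 160 bases before the start. Of the type I interferon list used below, 11 of 22 matched genes (50%) held the core. For comparison, the last 80 bases before the start are shown for Trim30b and Trim30c, neighbours of Trim30a in which no match was found, and for Trim28. No match says only that these letters are absent from the window searched. The Trim12a window, also without a match, ends at its start in bases that lie before the core in Trim5 and Trim12c. Bases after the start were not searched, so whether the core follows there in Trim12a was not tested.
Trim30b: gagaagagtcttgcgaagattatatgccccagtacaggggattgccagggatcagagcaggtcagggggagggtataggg
Trim30c: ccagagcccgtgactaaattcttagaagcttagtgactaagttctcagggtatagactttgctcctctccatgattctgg
Trim28: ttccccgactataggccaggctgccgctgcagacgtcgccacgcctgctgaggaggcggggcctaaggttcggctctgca

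These 3 stretches lie at chr7:104358647-104358726 (minus strand), chr7:104400779-104400858 (minus strand) and chr7:13024072-13024151 (plus strand).

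After filtering, 22052 cells remained of 23731 barcodes, with 16605777 to 90194260 UMIs per sample. Median UMIs per cell were 12983 to 14490.5 in iKO and 6405 to 11845.5 in control. Trex1 had 0 UMIs in 7 samples and 2 in control 2, so it could not check the labels. Cells were grouped into 11 classes by marker genes, and 8 classes had enough cells for a test. CD8 T cells made up 32.2% and 42.6% of iKO 1 and 2 but 10.1% and 8.38% of iKO 3 and 4, and between 2.97% and 21.1% of the control samples. Neutrophils were 1.45% to 6.19% of iKO and 10.4% to 21.6% of control cells. The summed level of 5 melanoma markers was 10.3 to 23.3 CPM (the UMIs of a gene per 1e+06 UMIs of the profile) in iKO and 5.36 to 9.67 CPM in control.

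In whole samples, the 4 Trim30 genes were the members called higher in iKO, and no member was called lower. Trim30a is known to restrain NF-kB signalling and the NLRP3 inflammasome in mouse macrophages. Trim30a stood at 255, 248, 205 and 199 CPM in iKO 1 to 4 and at 114, 94.8, 100 and 79.4 CPM in control 1 to 4. Trim30d stood at 81.8, 79.7, 73.8 and 64.9 CPM in iKO and at 35.7, 35.2, 34.9 and 27.7 CPM in control. For both genes each iKO sample lay above each control sample by a wide margin. The share of all genes without overlap between genotypes was not computed. Here and below, non-overlap therefore describes a member's values and does not set it apart from other genes. The log2 fold change was 1.22 for Trim30a (SE 0.12, adjusted p = 0.00193) and 1.17 for Trim30d (SE 0.0952, adjusted p = 0.000845).

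Trim30c had the largest fitted fold change of the 40 members tested. Its levels were 26.7, 22.6, 17.8 and 20.1 CPM in iKO and 6.52, 4.88, 4.94 and 7.21 CPM in control (log2 fold change 1.87, SE 0.202, adjusted p = 0.00316). Trim30b was at 32.5, 30.0, 33.3 and 33.0 CPM in iKO and at 25.8, 21.6, 22.8 and 18.5 CPM in control (log2 fold change 0.54, SE 0.0901, adjusted p = 0.0211). Again the groups did not overlap. The calls of Trim30a, Trim30c and Trim30d held in all 8 fits that left out 1 sample. That of Trim30b was lost without iKO 1, iKO 3, iKO 4, control 2 or control 3, with adjusted p up to 0.0877. Over all genes, 340 of 13459 (2.53%) were called in either direction, against 4 of the 40 members.

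The list of interferon-inducible members was drawn from general knowledge of the field, but with earlier results of these data known. Counts by this list, here and below, are therefore a description and not an independent test. Of the 13 members listed, 12 were tested in whole samples. All 12 had a fold change above 0, with a median log2 value of 0.54, while the median of all genes was -0.01. The 28 other members tested had a median of -0.06, and 0 of them were called at an adjusted p under 0.05 (edgeR). DESeq2 called 1 of the 28, Trim33, at a log2 fold change of -0.20 (adjusted p = 0.0284). Trim12c and Trim21 separated the genotypes without overlap but missed the threshold. Trim12c was at 67.7 ± 11.1 CPM in iKO and 47.1 ± 10.7 CPM in control (adjusted p = 0.129), and Trim21 at 16.6 ± 4.04 and 9.56 ± 1.92 CPM (adjusted p = 0.0766). With the sample number as a replicate block, Trim12c (log2 0.54, adjusted p = 0.0406) and Trim21 (log2 0.79, adjusted p = 0.0143) were called as well. Trim12a, the near neighbour of Trim12c, was at 46.2 to 61.2 CPM in iKO and 29.0 to 59.9 CPM in control, a log2 difference of 0.07 with a 95% interval from -0.36 to 0.50.

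**Figure D1:**
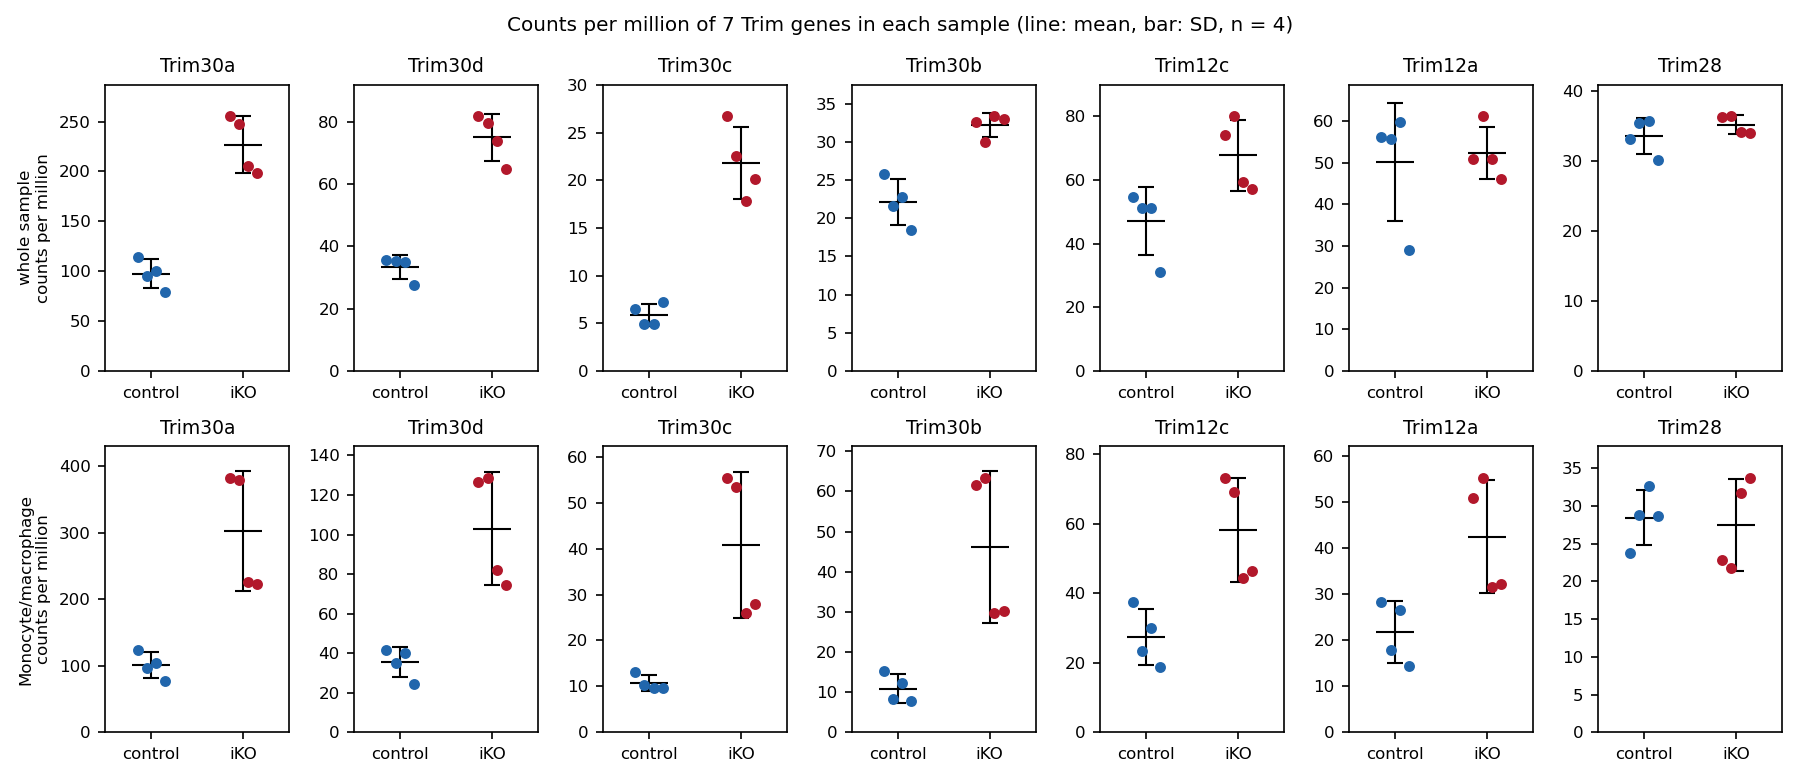
CPM (vertical axes, starting at 0) of 7 Trim genes in whole samples (top) and in monocytes and macrophages (bottom), with 1 point per sample in order of sample number, the mean as a line and the SD as a bar (n = 4 per genotype). The 4 Trim30 genes and Trim12c do not overlap between genotypes in either row, whereas Trim28 overlaps in both. The share of all genes without overlap was not computed. In the bottom row iKO 1 and 2 lie above iKO 3 and 4 for the first 6 genes.

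Monocytes and macrophages showed the most member calls of any class. Here 9 of 37 members tested were called higher and 0 lower, where 1335 of 11722 genes (11.4%) were called. All 9 were on the interferon-inducible list, of which 12 were tested with a median log2 fold change of 1.12, against a median within 0.01 of 0 for all genes. Trim30a reached 382, 379, 225 and 223 CPM in iKO 1 to 4 and 124, 96.5, 105 and 77.8 CPM in control (log2 1.56, SE 0.241, adjusted p = 0.00899). The iKO samples fell into a higher pair, iKO 1 and 2, and a lower pair, iKO 3 and 4, and the lower pair still lay above every control sample. The share of UMIs taken by the type I interferon list split into the same pairs, with 1.85% and 1.92% in iKO 1 and 2, 0.98% and 1.02% in iKO 3 and 4, and 0.25% to 0.50% in control.

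Trim30b rose from 10.9 ± 3.56 CPM (SD, n = 4) in control to 46.1 ± 18.8 CPM in iKO monocytes and macrophages (log2 2.08, SE 0.347, adjusted p = 0.0103). Trim30c rose from 10.7 ± 1.70 to 40.7 ± 15.9 CPM (log2 1.91, SE 0.301, adjusted p = 0.00917), and Trim30d from 35.4 ± 7.64 to 103 ± 28.7 CPM (log2 1.53, SE 0.241, adjusted p = 0.00917). These 3 and Trim30a held their calls in all 8 fits that left out 1 sample. Outside the Trim30 genes, Trim12c rose from 27.4 ± 8.09 to 58.2 ± 15.1 CPM (log2 1.07, adjusted p = 0.0288). Trim34a rose from 11.5 ± 2.96 to 25.8 ± 6.61 CPM (log2 1.17, adjusted p = 0.022), and Trim5, the capsid-binding restriction factor family, from 7.90 ± 2.23 to 14.9 ± 2.30 CPM (log2 0.89, adjusted p = 0.0268).

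Trim21, a cytosolic antibody receptor, was at 25.7, 23.9, 15.1 and 10.4 CPM in iKO monocytes and macrophages and at 7.74, 7.49, 8.15 and 6.04 CPM in control (log2 1.35, SE 0.301, adjusted p = 0.0245). Trim14, an adaptor at mitochondria in antiviral signalling, was at 12.8, 13.7, 8.49 and 8.97 CPM in iKO and 6.23, 6.09, 7.15 and 4.73 CPM in control (log2 0.86, SE 0.216, adjusted p = 0.0353). Neither gene overlapped between the genotypes. These 5 calls outside the Trim30 genes depended on single samples. Trim5, Trim12c and Trim21 were lost without iKO 1, iKO 2, control 2, control 3 or control 4 (adjusted p up to 0.080, 0.0853 and 0.0753). Trim34a was lost without iKO 1, iKO 2, control 2 or control 4 (up to 0.0636), and Trim14 without iKO 1, iKO 2 or any 1 control sample (up to 0.101).

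Trim12a, Trim26 and Trim56 completed the list in this class without passing the test. Trim12a was 42.4 ± 12.3 CPM in iKO and 21.8 ± 6.65 CPM in control (log2 0.95, adjusted p = 0.051). Trim56, which acts on STING and TLR3 signalling, had a log2 difference of 0.68 (adjusted p = 0.107), and Trim26 one of 0.42 (adjusted p = 0.141). Monocyte and macrophage sums were built from unlike clusters in the 2 genotypes: clusters 5, 11, 12, 16 and 20 held mostly iKO cells, and clusters 0, 3 and 4 more control than iKO cells. The summed level of 7 neutrophil markers in this class was 139 to 314 CPM in iKO and 423 to 566 CPM in control, and that of 5 melanoma markers 14.4 to 32.5 and 6.81 to 13.7 CPM. Their part in the result was not tested.

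Trim30a and Trim30d were also compared within each of 14 single clusters that had enough cells. Both genes were above control in 14 of 14, and both were called in 10 (clusters 3, 4, 5, 8, 10, 13, 14, 15, 17 and 18). Trim30a fold changes ran from log2 0.63 in cluster 21, macrophages high in Ccl8, Apoe and complement C1q genes, to 1.43 in cluster 15, monocytes high in Chil3 and Ifitm6. Cluster 0, macrophages high in Arg1 and Mmp12, had a log2 difference of 0.88 without a call (adjusted p = 0.186). Within the monocyte and macrophage clusters tested, Trim21 was called in 0 of 5 (log2 0.11 to 1.05, lowest adjusted p = 0.175), Trim14 in 0 of 5 (0.21 to 0.75, lowest adjusted p = 0.194) and Trim5 in 0 of 5 (-0.15 to 0.58, lowest adjusted p = 0.279). The calls of these 3 genes in the class sum were thus not seen within any of its clusters in which they were tested. Clusters 11, 12, 16 and 20 of this class had too few control cells (45, 52, 51 and 46) for the comparison. Trim12c and Trim34a were each called in 1 of 6, cluster 15, and lay below 0 in cluster 21. In cluster 15, 776 genes were called (9.4%) together with 6 members, namely Trim30a, Trim30b, Trim30c, Trim30d, Trim12c and Trim34a.

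In neutrophils, 2 of 19 members were called higher and 0 lower, where 1.48% of genes were called. Trim30a was at 331 ± 43.9 CPM in iKO neutrophils and 173 ± 31.3 CPM in control (log2 1.11, SE 0.227, adjusted p = 0.0286). The iKO mean was within the spread of that in monocytes and macrophages (302 ± 90.4 CPM). The call was lost without iKO 3, iKO 4, control 2, control 3 or control 4 (adjusted p up to 0.142). Trim21 was at 17.3, 19.4, 10.5 and 13.8 CPM in iKO and 4.28, 3.61, 6.49 and 6.48 CPM in control (log2 1.66, SE 0.306, adjusted p = 0.0135), with no overlap. It was lost without iKO 2 (adjusted p = 0.0945). Trim30d (log2 1.00, adjusted p = 0.0503) and Trim30b (log2 0.86, adjusted p = 0.173) did not pass.

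B cells had 4 of 18 members called higher and 0 lower, where 2.71% of genes were called. Trim30d was at 80.2, 61.8, 73.4 and 60.7 CPM in iKO B cells and 16.8, 27.2, 22.4 and 23.4 CPM in control (log2 1.59, SE 0.241, adjusted p = 0.0003). Trim12c was at 139, 166, 175 and 138 CPM in iKO and 61.5, 95.2, 88.2 and 65.4 CPM in control (log2 0.89, SE 0.175, adjusted p = 0.00377). Both separated the genotypes completely. Its neighbour Trim12a did not, with 178, 147, 171 and 121 CPM in iKO and 168, 197, 144 and 103 CPM in control (log2 0.01, 95% interval -0.37 to 0.40). Trim30a (log2 1.20, adjusted p = 0.000647) and Trim30b (log2 1.15, adjusted p = 0.0236) were the other calls. The Trim30b call was lost without iKO 1, iKO 4 or control 3 (adjusted p up to 0.366) and under DESeq2 (adjusted p = 0.172). Trim30c had 28 of 1286232 UMIs in iKO B cells (21.8 CPM) and 0 of 2875073 UMIs in control B cells, too few for the fit. A count of 0 allows up to 3 UMIs over the control group (1.04 CPM). By pooled counting alone this puts Trim30c at least 20.9-fold higher in iKO, taking the 28 UMIs without their own counting error. Control 3 alone gave 2188094 of the 2875073 control UMIs. The spread between samples is not part of this figure, so it does not bound the genotype difference. In this class 9 monocyte and macrophage markers summed to 423 to 1143 CPM in iKO and 576 to 752 CPM in control, and 7 neutrophil markers to 199 to 293 and 643 to 750 CPM. Their part in these results was not tested.

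CD4 T cells had 4 of 19 members called higher and 0 lower, where 2.89% of genes were called. Trim30d stood at 49.8, 86.6, 69.4 and 35.7 CPM in iKO and at 14.9, 21.7, 18.3 and 26.6 CPM in control (log2 1.60, SE 0.281, adjusted p = 0.00158). The groups did not overlap, and the call of Trim30d, like that of Trim30a (log2 1.21, adjusted p = 0.000431), held without any 1 sample. Trim12c (log2 0.74, adjusted p = 0.0148) was lost without iKO 1, iKO 2, control 2 or control 3 (up to 0.0688). Trim34a (log2 0.81, adjusted p = 0.0356) was lost without iKO 1, iKO 2, iKO 3, control 2 or control 3 (up to 0.138), and under DESeq2 (adjusted p = 0.0897). The 7 neutrophil markers summed to 166 to 218 CPM in iKO and 533 to 569 CPM in control CD4 T cells, and their part was not tested.

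CD8 T cells had 3 of 26 members called higher and 0 lower, where 5.35% of genes were called. Trim30a was at 125, 141, 141 and 137 CPM in iKO and 73.1, 60.7, 75.4 and 34.9 CPM in control (log2 1.15, SE 0.17, adjusted p = 0.0033). Trim30d was at 31.7 ± 5.23 CPM in iKO and 13.8 ± 5.69 CPM in control (log2 1.21, SE 0.222, adjusted p = 0.0103), and both calls held without any 1 sample. Trim12c (log2 0.67, adjusted p = 0.0425) held only without iKO 1, and adjusted p reached 0.125 without another sample. Clusters 1, 6, 22, 23 and 27 of this class held mostly iKO cells. The 7 neutrophil markers summed to 77.6 to 113 CPM in iKO and 276 to 452 CPM in control, and the 5 CD8 T markers to 4878 to 5696 and 3668 to 4509 CPM, and their part was not tested. Without the filter on low counts, Trim2 and Trim7 were also called lower in CD8 T cells. Their levels were 2.15 ± 0.60 and 2.24 ± 0.85 CPM in control and 0.31 ± 0.23 and 0.32 ± 0.24 CPM in iKO. In these CD8 T profiles, 5 mature dendritic cell markers summed to 15.5 to 36.2 CPM in iKO and 31.2 to 205 CPM in control. The 5 B cell markers summed to 2.32 to 11.0 and 4.85 to 32.3 CPM. Trim7 was highest in these 2 other classes (below), and their part in its value was not tested.

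Regulatory T cells (Treg) had 1 of 22 members called, Trim30d, where 1.54% of genes were called. Trim30d was 72.8 ± 25.9 CPM in iKO and 26.8 ± 13.5 CPM in control (log2 1.55, SE 0.32, adjusted p = 0.0296), with the lowest iKO sample (44.5 CPM) just below the highest control sample (45.2 CPM). The call was lost without iKO 1, iKO 2, control 2, control 3 or control 4 (up to 0.149). Type 2 conventional dendritic cells (cDC2) had 3 of 28 members called higher and 0 lower, where 2.65% of genes were called. These were Trim30a (log2 1.27, adjusted p = 0.0268), Trim30d (log2 1.30, adjusted p = 0.0301) and Trim34a (log2 1.13, adjusted p = 0.0462). All 3 were lost without iKO 1, iKO 2, control 2, control 3 or control 4, and Trim30d and Trim34a also without control 1 (up to 0.103, 0.0917 and 0.136). The 5 cDC2 markers summed to 378 to 1285 CPM in iKO and 1292 to 1703 CPM in control in this class, and the 7 neutrophil markers to 73.5 to 134 and 210 to 449 CPM, and their part was not tested. In mature dendritic cells 0 of 20 members were called at an adjusted p under 0.05 (edgeR), where 3 of 7295 genes (0.0411%) were called. There 3 of the 20 members and 930 of the 7295 genes had an unadjusted p under 0.05 (edgeR). DESeq2 called 1 member, where it called 2.08% of genes. Trim30a in this class was 163 ± 78.2 CPM in iKO and 70.9 ± 39.0 CPM in control (log2 1.28, adjusted p = 0.197), and the samples overlapped.

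**Figure D2:**
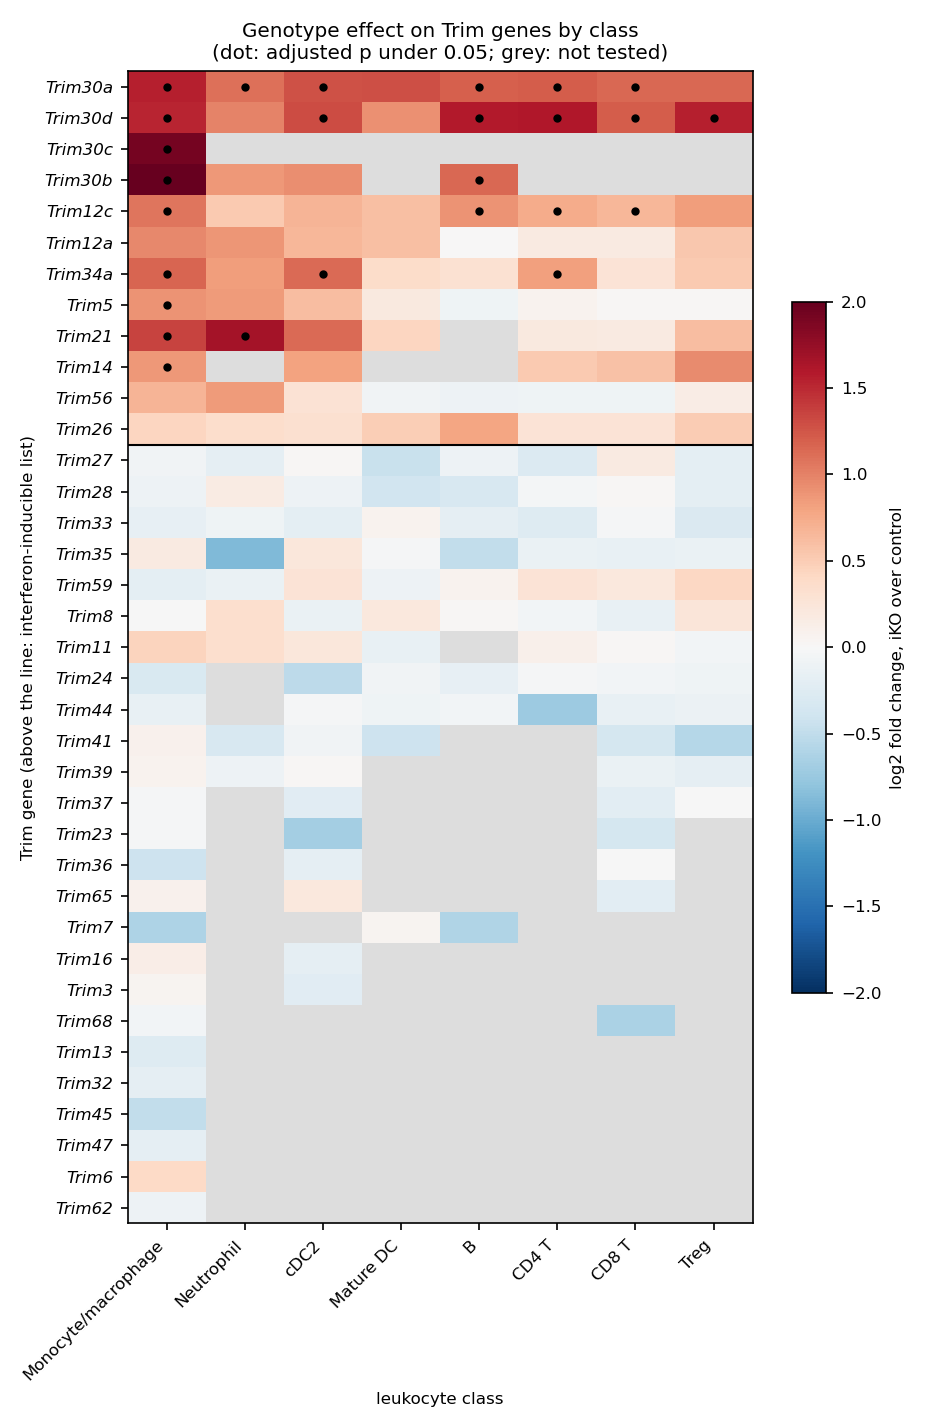
Log2 fold change of iKO over control (colour) for each Trim gene (rows) in each of 8 leukocyte classes (columns), with a dot where the adjusted p was under 0.05 and grey where counts were too low to test. The 26 dots all lie above the line, among members of the interferon-inducible list, and Trim30a and Trim30d are red in all 8 columns.

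Counted over the 8 classes, interferon-inducible members gave 81 tests, of which 26 were called higher, 0 lower and 76 lay above 0. The other members gave 108 tests, with 0 calls in either direction and 30 above 0. Over the same 8 classes, 2569 of 61711 gene tests (4.16%) were called, and higher calls made up 2.43% of all tests, while 9 of the 26 member calls came from monocytes and macrophages. Trim30a ranged from log2 1.11 in neutrophils to 1.56 in monocytes and macrophages, and Trim30d from 0.92 in mature dendritic cells to 1.60 in CD4 T cells. Trim12c ranged from 0.52 to 1.07. A second pattern was seen in Trim5, Trim12a, Trim21 and Trim56, described here because of their values. Their log2 differences were 0.89, 0.95, 1.35 and 0.68 in monocytes and macrophages, and 0.02, 0.18, 0.17 and -0.09 in CD8 T cells.

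The difference of the genotype effect between classes was tested within samples. Between monocytes and macrophages and CD8 T cells, 0 of 26 members differed at an adjusted p under 0.05 (limma), where 1.13% of genes did. An unadjusted p under 0.05 was found for 4 of the 26 members and for 1463 of 9009 genes. The largest difference was in Trim21, log2 1.00 (SE 0.333, adjusted p = 0.172), followed by Trim5 with 0.82 (SE 0.318, adjusted p = 0.237) and Trim34a with 0.79 (SE 0.291, adjusted p = 0.214). Trim30a differed by 0.26 (SE 0.249) and Trim30d by 0.14 (SE 0.245). Between monocytes and macrophages and neutrophils, 0 of 19 members differed (limma, 0.015% of genes called). Here 1 member had an unadjusted p under 0.05, as did 540 of 6675 genes. A difference between these classes in any member's response was thus not established.

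Interferon linkage was then examined within one genotype. In each control sample, the cells of a class were ranked by the share of their UMIs that came from a list of 30 interferon-stimulated genes without any Trim gene, and the highest of 3 equal parts was compared with the lowest, paired by sample. This is a cut through a range, not a cell type: of the 596 monocytes and macrophages of control 1, for example, 111 lay within 10% of a cut. In monocytes and macrophages, 10 of 30 members were higher and 2 lower in interferon-high cells, where 7.6% of genes were called. All 10 were on the interferon-inducible list, of which 12 were tested. Trim30a was at 210, 183, 187 and 145 CPM in the interferon-high cells of control 1 to 4 and at 70.4, 58.8, 44.9 and 37.0 CPM in the interferon-low cells (log2 1.83, SE 0.0986, adjusted p = 1.87e-06). Trim30c was at 22.0, 21.5, 19.8 and 21.3 CPM against 6.9, 3.4, 4.0 and 2.5 CPM (log2 2.44, SE 0.231, adjusted p = 0.000106). In every control sample the high part exceeded the low part for both genes.

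Members that the genotype contrast left uncalled in monocytes and macrophages were called here. Trim12a was at 41.6, 28.7, 35.2 and 23.6 CPM in interferon-high cells and at 18.6, 13.2, 21.9 and 6.8 CPM in interferon-low cells (log2 1.21, SE 0.171, adjusted p = 0.00172). Trim56 had a log2 ratio of 0.72 (adjusted p = 0.0176) and Trim26 one of 0.58 (adjusted p = 0.031), and both were lost without control 1 or control 3 (up to 0.102 and 0.13). Trim5 (log2 0.63, adjusted p = 0.279) and Trim14 (log2 0.87, adjusted p = 0.0588), called between genotypes, were not called here. The 2 lower members were Trim37 (log2 -1.18, adjusted p = 0.0275), a ubiquitin ligase of peroxisomes and centrosomes, and Trim47 (log2 -1.13, adjusted p = 0.0168). Trim37 lost its call without control 1, control 2 or control 4 (up to 0.189) and Trim47 without control 1 or control 4 (up to 0.148). Between genotypes in this class, Trim37 and Trim47 had log2 differences of -0.02 and -0.19.

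In control CD8 T cells, 6 of 18 members were higher and 0 lower in the interferon-high cells, where 9.43% of genes were called. These were Trim12a, Trim12c, Trim21, Trim30a, Trim34a and Trim56. Trim21 was at 25.4, 31.3, 20.0 and 30.7 CPM in interferon-high cells and at 6.7, 7.5, 6.8 and 6.2 CPM in interferon-low cells (log2 1.88, SE 0.314, adjusted p = 0.00301). These levels rest on 6 to 38 UMIs per sample in the high part and 3 to 19 in the low part. Its genotype difference in the same class was 0.17. Trim34a and Trim56 likewise had log2 ratios of 1.43 and 0.98 here and genotype differences of 0.28 and -0.09. All but Trim30a were lost without control 1 (Trim12a 0.131, Trim12c 0.227, Trim21 0.076, Trim34a 0.10 and Trim56 0.0941 as adjusted p). The interferon-high CD8 T cells had fewer UMIs, a median of 6071.5 to 8390 per sample against 11449 to 18116 in the interferon-low cells, and the part of this gap in the result was not tested.

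In control neutrophils, 6 of 12 members were higher and 0 lower, where 17.7% of genes were called. Trim30a was at 304, 379, 318 and 235 CPM in interferon-high cells and 57.5, 34.4, 88.0 and 80.6 CPM in interferon-low cells (log2 2.18, SE 0.245, adjusted p = 5.5e-05). Trim26 was at 32.5, 40.9, 45.8 and 49.2 against 15.7, 8.6, 13.3 and 17.9 CPM (log2 1.49, SE 0.311, adjusted p = 0.00501). Trim12a, Trim12c, Trim30b and Trim30d were the other calls, and Trim30d was lost without control 1 or control 2 (up to 0.0945). Median UMIs per cell differed little between the parts here, with 3640.5 to 5195 in the low and 3481 to 5412 in the high part.

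The same split within the iKO samples, added after the data were seen, called 13 members higher and 4 lower of 34 in monocytes and macrophages (35.9% of genes called). It called 13 higher and 3 lower of 29 in CD8 T cells (37.2% of genes called) and 7 higher and 0 lower of 10 in neutrophils (22.1% of genes called). The neutrophil fit left out iKO 1, which had 18 cells per part, under the minimum of 20. Trim28 and Trim27, which were not called between genotypes, were lower in interferon-high iKO cells, with log2 ratios of -0.76 and -0.49 in monocytes and macrophages and -0.42 and -0.28 in CD8 T cells. In control cells the same log2 ratios were -0.34 and -0.62 for Trim28 (adjusted p = 0.13 and 0.0855) and -0.32 and 0.13 for Trim27 (adjusted p = 0.224 and 0.755), and none was called. In iKO CD8 T cells the low part again had more UMIs per cell.

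**Figure D3:**
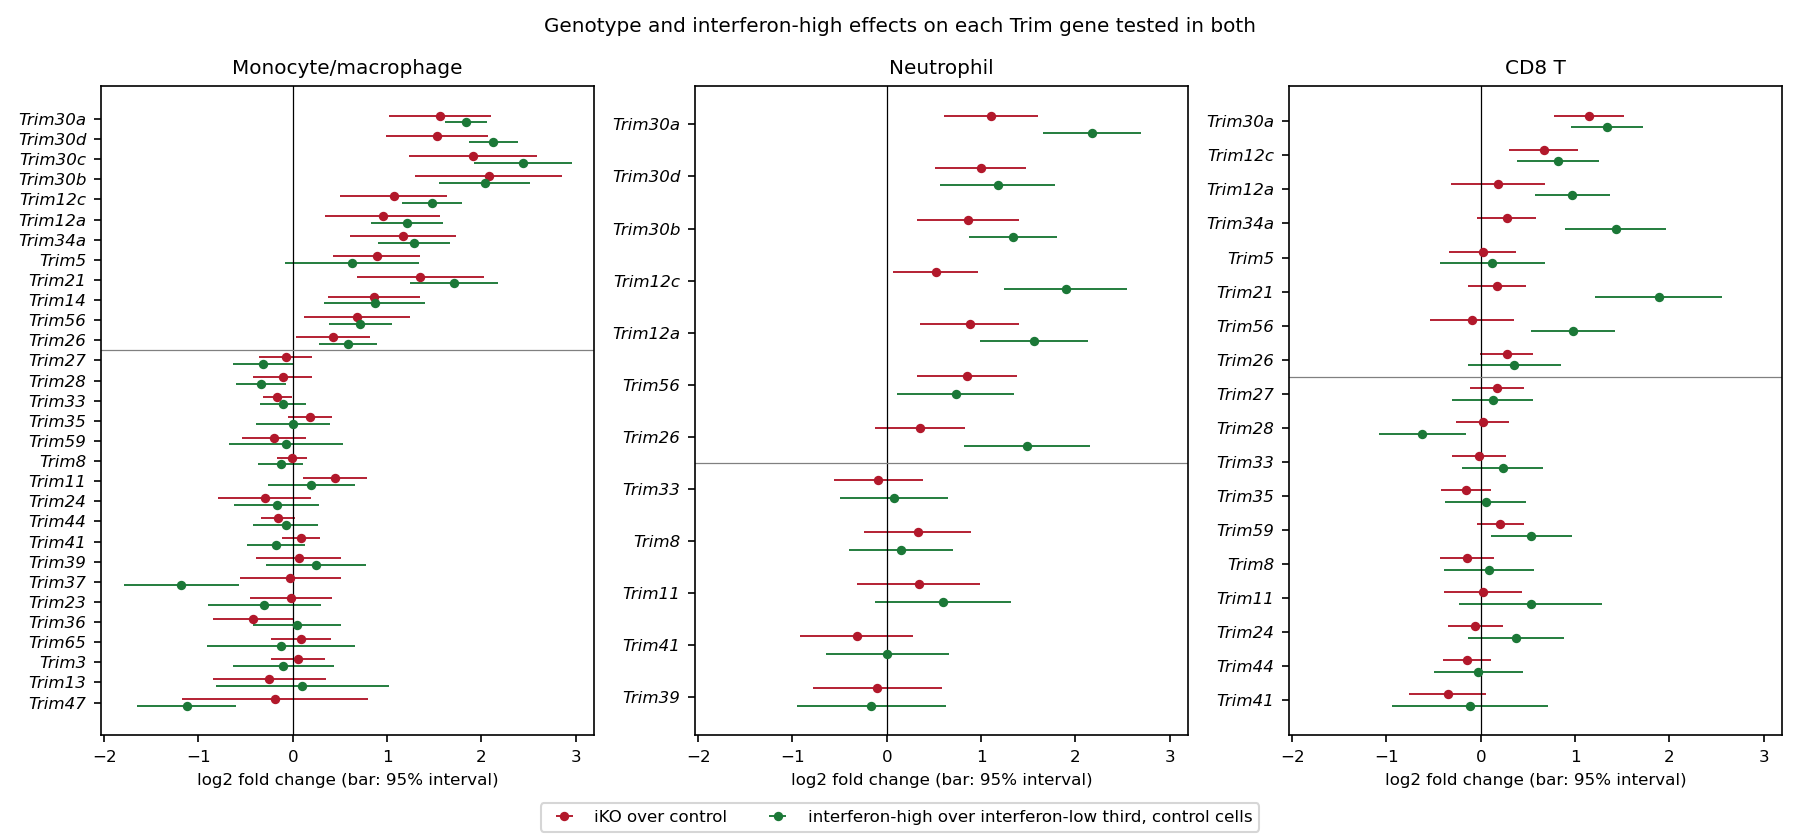
Log2 fold change with its 95% interval (horizontal axis) for each Trim gene tested in both contrasts, in 3 classes (panels): iKO over control in red and interferon-high over interferon-low control cells in green. The grey line separates the interferon-inducible list (above) from the other members. Both contrasts use the control samples. In CD8 T cells the green points of Trim21, Trim34a and Trim56 lie at 1.88, 1.43 and 0.98 and the red points at 0.17, 0.28 and -0.09.

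The TIF1 co-regulators Trim28 and Trim33 and other abundant members differed little between genotypes. A member is called steady here where its 95% interval, not adjusted for the number of genes, lay within a 1.5-fold change in either direction (log2 0.585). In whole samples 19 of 40 members met this bound, 16 of them outside the interferon-inducible list, with Trim12a, Trim26 and Trim56 as the other 3. For these last members the label holds for whole samples only. Within classes, Trim12a and Trim26 lay above 0 in 8 of 8 (log2 0.0139 to 0.955 and 0.273 to 0.784). Trim56 lay above 0 in 4 of 8 (-0.108 to 0.852). Class shares differed between genotypes, and their part in these whole-sample values was not tested. The share of all genes within this bound is not given here, so the count does not set the family apart from other genes. Trim28 was at 36.3, 36.4, 34.1 and 34.0 CPM in iKO and at 33.2, 35.3, 35.7 and 30.1 CPM in control (log2 0.07, 95% interval -0.09 to 0.22). Trim8, a ligase acting in NF-kB and STAT signalling, was at 38.9, 39.2, 44.3 and 46.6 CPM in iKO and at 40.7, 40.7, 45.8 and 40.5 CPM in control (log2 0.01, interval -0.19 to 0.20). The groups overlapped for both.

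Trim33, which acts in TGF-beta signalling, was slightly lower in iKO, with 31.8, 32.7, 32.0 and 31.5 CPM against 36.7, 37.8, 41.1 and 32.1 CPM in control (log2 -0.21, interval -0.36 to -0.05, adjusted p = 0.139 with edgeR). Its class differences ranged from -0.29 in Treg to 0.07 in mature dendritic cells, and 5 of 8 class intervals lay within the bound. Trim24, the remaining TIF1 member tested, had a wider interval (log2 -0.17, from -0.68 to 0.33), which the bound does not hold. Trim27, a ligase acting on TBK1 and the retromer, had a whole-sample log2 difference of 0.07 and class differences from -0.44 to 0.17. Trim44, whose product carries no RING domain, had one of -0.17 and was below 0 in each of the 7 classes tested. Its widest class value was -0.73 in CD4 T cells (adjusted p = 0.0932), where iKO lay at 22.1 to 40.3 CPM and control at 43.3 to 65.4 CPM, without overlap. Trim35 had one of -0.09, and its widest class value was -0.88 in neutrophils (adjusted p = 0.534).

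The members in this and the following paragraphs that were neither called nor among the 12 highest (Trim2, Trim7, Trim24, Trim59 and Trim41, and Trim37 and Trim47 above) were chosen after their values were seen. Trim2 and Trim7 had the lowest whole-sample fold changes, log2 -1.20 (adjusted p = 0.135) and -1.14 (adjusted p = 0.201), without a call. Trim2 was at 0.34 to 0.73 CPM in iKO and 0.50 to 1.75 CPM in control. The 8 members Trim9, Trim17, Trim29, Trim34b, Trim43b, Trim43c, Trim63 and Trim66 had 11 to 19 UMIs each in kept cells and were not tested in any profile.

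Beside their response, members differed in the leukocyte class where they were found. Trim35, known to act on pyruvate kinase and IRF7, was highest in type 1 conventional dendritic cells (cDC1), with 330, 308, 297 and 375 CPM in iKO and 423 and 295 CPM in the 2 control samples with at least 20 such cells. Mature dendritic cells followed with 102 ± 12.5 CPM in control (n = 4), then B cells with 86.8 ± 25.4 CPM, and these neighbours did not differ beyond their spread. Control cDC2 were at 24.7 ± 4.36 CPM, monocytes and macrophages at 24.0 ± 1.87 CPM and neutrophils at 9.92 ± 2.10 CPM.

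Trim7, known for binding glycogenin, was a B cell and mature dendritic cell member, with 101 ± 11.9 CPM in control B cells and 30.8 ± 5.65 CPM in control mature dendritic cells. The other tested classes lay between 0.68 and 4.43 CPM in control. In iKO B cells Trim7 was at 45.3, 85.6, 61.1 and 60.7 CPM against 106, 102, 84.5 and 112 CPM in control (log2 -0.60, adjusted p = 0.166), and 1 iKO sample lay just above the lowest control sample. B cells were 0.72% to 4.50% of iKO samples and 2.15% to 19.9% of control samples, and the part of this in the whole-sample value of Trim7 was not tested.

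Trim30b was a neutrophil member, at 193 ± 32.3 CPM in control neutrophils, 46.5 ± 14.8 CPM in B cells, 19.2 ± 6.92 CPM in cDC2 and 10.9 ± 3.56 CPM in monocytes and macrophages. CD4 T, CD8 T and Treg cells lay at 1.41, 1.68 and 1.39 CPM, beside 7 neutrophil markers that summed to 254 to 569 CPM in these classes in control. Its whole-sample fold change (log2 0.54) was below that in monocytes and macrophages (2.08), B cells (1.15) and neutrophils (0.86), beside the lower share of neutrophils in iKO. Trim30c in contrast was a monocyte and macrophage member in control, at 10.7 ± 1.70 CPM against 4.31 ± 1.54 CPM in neutrophils and at most 2.36 CPM in the other tested classes. In iKO it was found at 24.2 ± 7.58 CPM in B cells and 24.5 ± 17.9 CPM in neutrophils, where iKO 3 (1.75 CPM) lay below every control sample.

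Trim34a and Trim12a were highest in B cells among the 8 tested classes, at 133 ± 13.0 and 153 ± 39.9 CPM in control. The order of Trim34a went on with CD4 T cells (39.9 ± 8.17 CPM) and ended with monocytes and macrophages (11.5 ± 2.96 CPM), and past B cells no 2 neighbours differed beyond their spread. Trim12a was next highest in CD4 T cells (106 ± 18.1 CPM) and neutrophils (95.4 ± 23.4 CPM), and lowest in monocytes and macrophages (21.8 ± 6.65 CPM). Trim59 was a lymphocyte member, at 45.9 to 50.2 CPM in control B, CD4 T, CD8 T and Treg cells and at 5.45 to 14.3 CPM in the myeloid classes. Trim24, the TIF1 member that binds nuclear receptors, was at 61.5 ± 18.8 CPM in control B cells and 45.3 ± 7.32 CPM in control mature dendritic cells. Control monocytes and macrophages were at 8.78 ± 2.70 CPM. In iKO, Trim24 was highest in plasmacytoid dendritic cells, a class with too few control cells for a test. Its mean there was 86.9 CPM, against 56.3 CPM in iKO B cells.

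Other members were near even across classes. Trim41 differed by 1.55-fold and Trim33 by 2.02-fold between the lowest and the highest class mean in control, and Trim8 by 2.30-fold. Trim30a differed by 2.83-fold, from 61.0 ± 18.6 CPM in CD8 T cells to 173 ± 31.3 CPM in neutrophils.

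**Figure D4:**
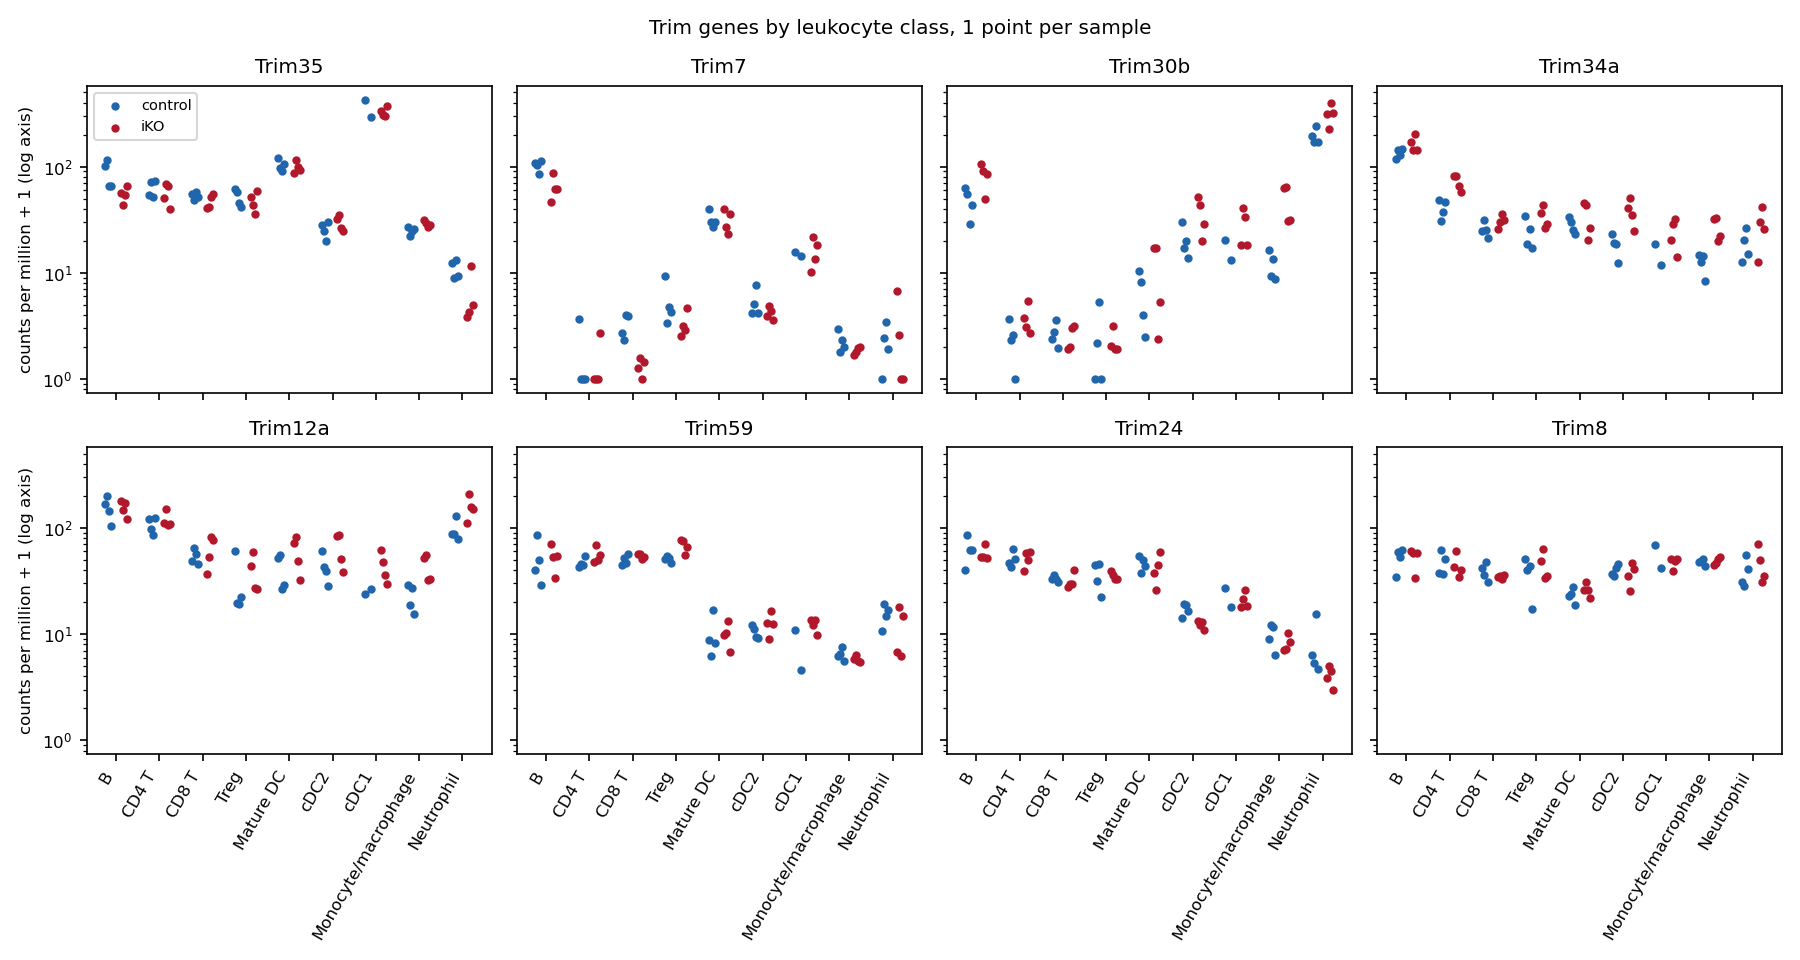
CPM plus 1 (vertical log axis, shared) of 8 Trim genes in 9 leukocyte classes, with 1 point per sample (blue control, red iKO). Trim35 peaks in cDC1, Trim7 in B cells and mature dendritic cells, Trim30b in neutrophils and B cells, and Trim34a in B cells, while Trim8 stays within a narrow band.

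Tripartite motif genes that carry other symbols were followed as well. Pml, which forms nuclear bodies and is interferon-inducible, was called higher in monocytes and macrophages (log2 1.55, adjusted p = 0.0155), B cells (0.82, adjusted p = 0.00699) and CD8 T cells (0.76, adjusted p = 0.0306). In whole samples it missed the threshold (1.04, adjusted p = 0.0746). Mefv (0.38, adjusted p = 0.289), Mid1 (0.74, adjusted p = 0.287) and Mid2 (-1.41, adjusted p = 0.143) were not called there either. Of the type I interferon list, 28 of 30 genes were called higher and 0 lower in whole samples, with a median log2 of 1.80.

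Partners of the family were counted by the same 1.5-fold bound in whole samples, where 2.53% of all genes were called. The share of all genes within the bound is not given here, so these counts do not set the partners apart from other genes. Of 9 genes for co-repressors that work with Trim28, among them Setdb1, Cbx5 and Hdac1, 0 were called in whole samples (edgeR), and 6 had intervals within the 1.5-fold bound. Hdac1 was called higher in monocytes and macrophages (log2 0.38, adjusted p = 0.0337) and Atf7ip in CD8 T cells (0.79, adjusted p = 0.0236). Of 10 signalling adaptors and kinases that Trim ligases act on, 0 were called in whole samples and 8 had intervals within the bound. Ikbke was called higher in monocytes and macrophages (log2 0.71, adjusted p = 0.0102) and Tbk1 in CD8 T cells (0.50, adjusted p = 0.0465). In each of these classes the calls were thus 1 of 9 co-repressors and 1 of 10 adaptors. Of all genes, 11.4% were called in monocytes and macrophages and 5.35% in CD8 T cells. Within classes the picture varied. The intervals of 2 of 9 co-repressors lay within the bound in neutrophils and of 7 of 9 in cDC2. Of the adaptors, 0 of 8 met it in neutrophils, 0 of 6 in CD4 T cells and 6 of 10 in cDC2.

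Some members cannot be fully told apart by the sequence at their 3′ ends, from which the assay reads. Windows of 91 bases in the last 400 bases of transcripts were compared with the transcripts of all other genes (GENCODE M21). Trim5 shared 20.6% of its windows with Trim12c, Trim30d 17.1% with Trim30a, and Trim34a 14.7% with Trim34b, while Trim12c shared 1.61% with a predicted gene. Trim16 shared 24% with Fbxw10, and Trim43b and Trim43c 7.19% and 3.16% with Trim43a, so their values are uncertain as well. Trim34b, at 14 UMIs, shared 41% with Trim34a, so its value is uncertain. Trim30a, Trim30b, Trim30c, Trim12a and Trim21 shared none.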

How the data were processed

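The authors deposited UMI counts per gene and cell as 1 matrix for each of the 8 hashtagged samples, made with Cell Ranger 7.1.0 on GRCm39, per the submitters' processing notes. The library was a 10x 3′ v3 library of 1 pool per genotype, per the labels' protocols. The members and all lists were chosen with earlier results of these data known. The gene left out by the rule is not reported here.

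Cells with at least 300 genes, at most 10% mitochondrial counts and a Scrublet score of at most 0.25 were kept (438 removed as doublets, 1.95%), in 34 clusters (2000 variable genes, 30 components, 20 neighbours, Leiden resolution 2, leidenalg 0.10.2, scanpy 1.11.5). Classes were named from marker lists, and 4 clusters stayed unnamed. No barcode was shared within a pool, and 45 were shared between samples of different pools. Raw counts were summed per sample and class (at least 20 cells in at least 3 samples per genotype) and tested with edgeR 4.0.16 (quasi-likelihood, TMM, filterByExpr) over all genes with Benjamini-Hochberg adjustment. Differences between classes used limma 3.58.1 (prior count 2), and DESeq2 1.42.0 was an alternative. Named members were those called in any profile and the 12 with the highest mean level. CPM is scaled by summed counts, not by gene length, since each 3′ UMI stands for 1 molecule. Tests were checked on simulated data (200 genes changed 4-fold in whole samples: 87.5% recovered of those changed, 5.91% of calls false). In mature dendritic cells 9.05% of calls were false. Smaller changes, like most reported here, were not simulated, so recovery of these is not known. Deviations of same-numbered whole samples correlated at 0.502, 0.238, 0.145 and 0.532. Those of iKO 2 and iKO 3 correlated most with control 1 and control 4, not with the control of their own number. In no class did all 4 correlations exceed 0.1. The main fits used genotype only. The numbers, taken from the matrix names, served as a replicate block in an alternative fit, and whether they mark true pairs is not established. Sequences are from RefSeq (GRCm38.p6), matched by symbol.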

Additional observations from a re-analysis of the deposited data

Results flagged for a closer look

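In groups of 4 samples, a sample was singled out where its gap to the nearest other, over the group's range, exceeded Dixon's 95% critical value. This met 6 of 88 groups, and chance alone gives about 1 in 20. Control 4 was low in whole samples for 4 members: Trim12a at 29.0 CPM (others 55.6 to 59.9), Trim12c at 31.2 CPM (others 51.2 to 54.7), Trim30d at 27.7 CPM (others 34.9 to 35.7) and Trim21 at 6.71 CPM (others 10.2 to 10.8). Control 4 also had the fewest CD8 T (2.97%) and CD4 T cells (2.00%) of the control samples. Trim8 was high in control 3, at 45.8 CPM (others 40.5 to 40.7). In CD4 T cells, Trim30a was high in iKO 2, at 300 CPM (others 182 to 194).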

How the results depend on the processing

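With DESeq2 size factors (RLE) in edgeR, each of the 9 member counts stayed within 1.5 times its value, as did the whole-sample count with all deposited barcodes and the interaction counts with a prior count of 0.5 and the interferon split into 2 equal parts. In what follows the share of all genes called in the same fit stands in brackets. For the fits that left out 1 sample it is not given, so those ranges cannot be set against all genes. The DESeq2 Wald test called 8 members in whole samples (10.3%), 1 in mature dendritic cells (2.08%), 4 in neutrophils (2.34%) and 2 in Treg (3.01%). Without the low-count filter 5 members were called in CD8 T cells (3.36%), 1 in mature dendritic cells (1.22%), 6 in neutrophils (2.13%), 3 in Treg (2.68%) and 5 in cDC2 (2.66%). Leiden resolution 1 gave 4 in neutrophils (4.74%) and 5 in cDC2 (3.36%), and no value for mature dendritic cells. Its classes held other sets of cells. A cluster of 1154 cells high in Hcar2 and Cxcl2 stayed unnamed, which left 783 cells as neutrophils. Clusters of 2073, 1933 and 805 cells that scored highest for monocyte and macrophage markers stayed unnamed too. The replicate block gave 3 in Treg (2.8%) and 6 in whole samples (5.26%), and in classes added Trim12a in monocytes and macrophages, Trim30d in neutrophils and Trim12c and Trim30a in Treg and lost Trim30b in B cells (adjusted p = 0.113). Leaving out 1 sample gave 3 to 4 calls in whole samples, 3 to 4 in B, 2 to 5 in CD4 T, 2 to 3 in CD8 T, 0 to 0 in mature dendritic cells, 4 to 11 in monocytes and macrophages, 1 to 2 in neutrophils, 0 to 3 in Treg and 0 to 6 in cDC2. For the interferon split it gave 8 to 11, 1 to 7 and 5 to 6 in monocytes and macrophages, CD8 T cells and neutrophils, and 0 to 0 for both interactions. Of 30 genotype calls, 14 held without any 1 sample. The interferon split in iKO CD8 T cells called 16 members (37.2%). Within cluster 21, Trim34a, Trim5 and Trim12c turned to -0.0637, -0.146 and -0.185. The cause was not tested. Classes with few cells (41 to 109 iKO B cells per sample) limit what low members can show.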
